A study of Mus musculus with 24 samples.

Results

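The dual-specificity MAP kinase phosphatases studied here were *Dusp1*, *Dusp2*, *Dusp4*, *Dusp5*, *Dusp6*, *Dusp7*, *Dusp10* and *Dusp16*, 8 of the 17464 genes listed in the bulk RNA-seq of splenic regulatory T cells, taken by matching their symbols to Ensembl identifiers. All 8 passed the filter on low values, a level of at least 10 normalized units in at least 4 libraries. Resting cells (rTreg, sorted as CD62L+ CD44-), activated cells (aTreg, CD62L- CD44+) and KLRG1+ cells (kTreg) came from the spleens of wild-type C57BL/6JRccHsd mice, 4 young at 2 months and 4 old at 26 months. The labels name no treatment and no altered allele. The 24 libraries, 1 per subset and mouse, formed 6 groups of 4, and the replicate number was taken to mark the mouse, since the subsets came from the same 8 mice. A normalized unit is a read divided by a size factor of its library, and each library held between 15045747 and 29521942 reads on listed genes.

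MAP kinases (ERK, JNK and p38) are switched on when a threonine and a tyrosine of their activation loop are phosphorylated, and the dual-specificity phosphatases switch them off by removing both phosphates. Many of these phosphatases are themselves induced by MAP kinase activity, which makes them feedback inhibitors and transcriptional readouts of recent signalling. In T cells they set the length and strength of the signals that follow engagement of the antigen receptor, cytokine receptors and stress. *Dusp1*, *Dusp2*, *Dusp4* and *Dusp5* encode the inducible nuclear enzymes, *Dusp6* and *Dusp7* the cytoplasmic enzymes directed at ERK, and *Dusp10* and *Dusp16* the enzymes directed at JNK and p38.

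The sorting markers were checked before the members were read. *Klrg1* lay between 16559 and 41561 units in the 8 kTreg libraries and at 357 units or below in all others. *Foxp3* ranged from 13151 to 37793 units, except in old aTreg replicate 2 with 5079. Young kTreg replicate 4 stood apart with 4913 genes at 0, against 419 to 2756 in the others. The old rTreg libraries carried markers of other cells. Their summed level of the 5 macrophage and monocyte markers, all listed, was 10049 to 26168 units, against 536 to 7763 in young rTreg, 124 to 239 in old aTreg and 1753 to 2731 in old kTreg libraries, while young kTreg libraries ranged from 0 to 17136. The 4 basophil and mast cell markers, all listed, summed to 2524 to 6119 units in old rTreg libraries and to at most 284 in every other library. For the members, comparisons with rTreg cells that were called are also given within each age. In bulk RNA, fewer cells of a type and less RNA per cell cannot be told apart.

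The promoters of *Dusp1* and *Dusp5*, which encode inducible enzymes and were called higher in kTreg than in rTreg cells, are shown upstream of their RefSeq starts. RefSeq held a promoter for 7 of the 8 members, *Dusp4* being the exception, each of which matched GRCm39 at a single place. The capitals mark matches, on either strand, to a cyclic AMP response element (CRE, TGACGTCA), an AP-1 site (TGANTCA), an E-box (CACGTG), a STAT site (TTCNNNGAA), a CArG box or an NF-kappaB site. None of these motifs overlapped another in the windows below.
*Dusp1*, chr17:26727507-26727696, minus strand: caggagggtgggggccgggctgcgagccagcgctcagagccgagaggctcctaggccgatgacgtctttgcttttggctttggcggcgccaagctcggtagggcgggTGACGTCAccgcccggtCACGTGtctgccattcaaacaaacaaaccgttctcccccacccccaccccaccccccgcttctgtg
*Dusp5*, chr19:53517326-53517531, plus strand: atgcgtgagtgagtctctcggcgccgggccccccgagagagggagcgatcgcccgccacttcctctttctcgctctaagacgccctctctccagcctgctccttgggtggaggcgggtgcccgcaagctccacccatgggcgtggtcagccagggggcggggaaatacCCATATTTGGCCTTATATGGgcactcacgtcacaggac
The 250-base window of *Dusp1* held a CRE that began 143 bases and an E-box that began 126 bases before the start. That of *Dusp5* held 2 CArG boxes side by side, beginning 82 and 72 bases before it, the element that serum response factor binds. Of 32851 RefSeq promoter windows of this length, 1.55% held a CRE, 6.02% an E-box and 1.47% a CArG box. The window of *Dusp2* held an E-box within its annotated exon, and those of *Dusp6*, *Dusp7*, *Dusp10* and *Dusp16* held no match to the 6 motifs, those of *Dusp7* and *Dusp10* lying wholly in annotated exons of these genes. Annotated exons of the genes in GENCODE, 60 bases for *Dusp1* and 44 for *Dusp5*, were left off the printed ends. A match is a description of the letters, and binding was not measured.

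The members did not move as a block (plot of fold changes between subsets). Calls came from limma over the 16630 genes tested, and required a fold change of more than 1.5 and a p below 0.05 after Benjamini-Hochberg adjustment. In kTreg against aTreg cells, 2 of 8 members were called, *Dusp5* higher and *Dusp6* lower, where 7.39% of all genes tested were called. In kTreg against rTreg cells 4 of 8 were called, *Dusp1*, *Dusp5* and *Dusp16* higher and *Dusp10* lower, against 15.5% of all genes. In aTreg against rTreg cells 3 of 8 were called, *Dusp16* higher and *Dusp4* and *Dusp10* lower, against 8.01% of all genes. The 3 comparisons share libraries and are not independent of each other. In young aTreg against young rTreg cells 0 of 8 were called (3.35% of all genes), with 0 also by unadjusted p in limma and by edgeR and DESeq2. Within young mice, kTreg against aTreg cells gave 2 calls, *Dusp5* and *Dusp6* (6.95% of all genes), and kTreg against rTreg cells 4, *Dusp1*, *Dusp2*, *Dusp5* and *Dusp10* (15.8%). Within old mice, kTreg against aTreg cells gave 1 call, *Dusp5* (2.2%), kTreg against rTreg cells 4, *Dusp1*, *Dusp5*, *Dusp10* and *Dusp16* (8.86%), and aTreg against rTreg cells 3, *Dusp4*, *Dusp10* and *Dusp16* (8.6%).

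**Figure D1:**
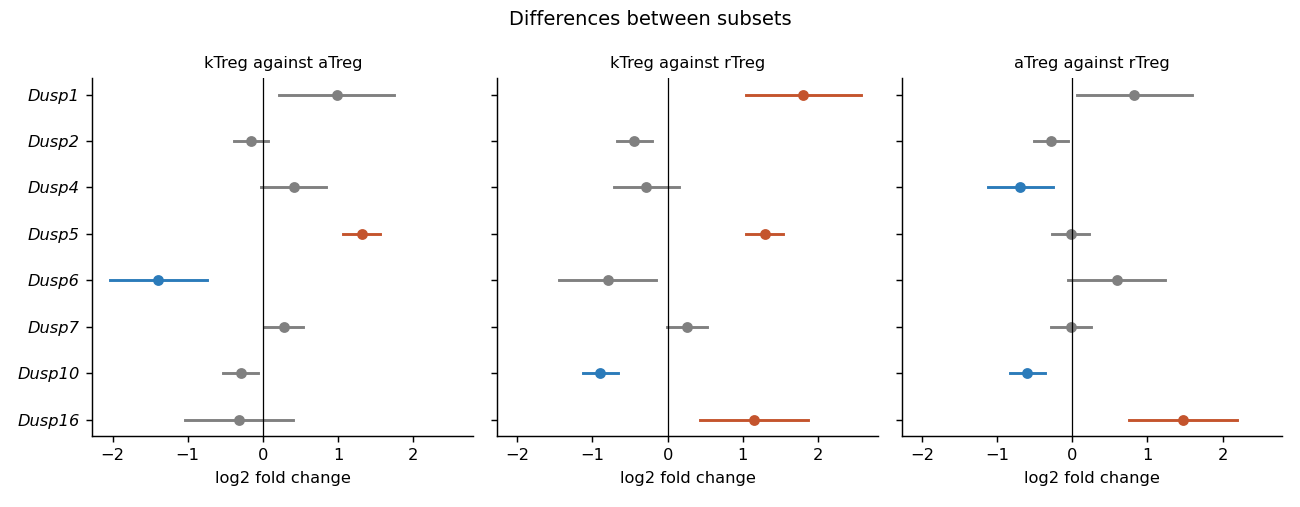
Log2 fold change (x axis) of each member between subsets, with young and old mice given equal weight. Points are limma estimates and bars their 95% confidence intervals. Orange is called higher, blue called lower and grey not called. *Dusp5* is the only member called higher in kTreg cells against each of the other subsets.

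Levels per kilobase of exon put the members in a steep order. The median over the 24 libraries was 3295 units per kilobase for *Dusp1*, 2761 for *Dusp2*, 733 for *Dusp5*, 314 for *Dusp6*, 263 for *Dusp7*, 134 for *Dusp10*, 124 for *Dusp4* and 4.94 for *Dusp16*. Among the genes tested, *Dusp1* stood at the percentile 98.2 of this measure and *Dusp16* at 17.1. *Dusp16* rested on 11 to 123 reads per library, so its counting error is the largest among the members, while each of the others had at least 75 reads in every library.

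**Figure D2:**
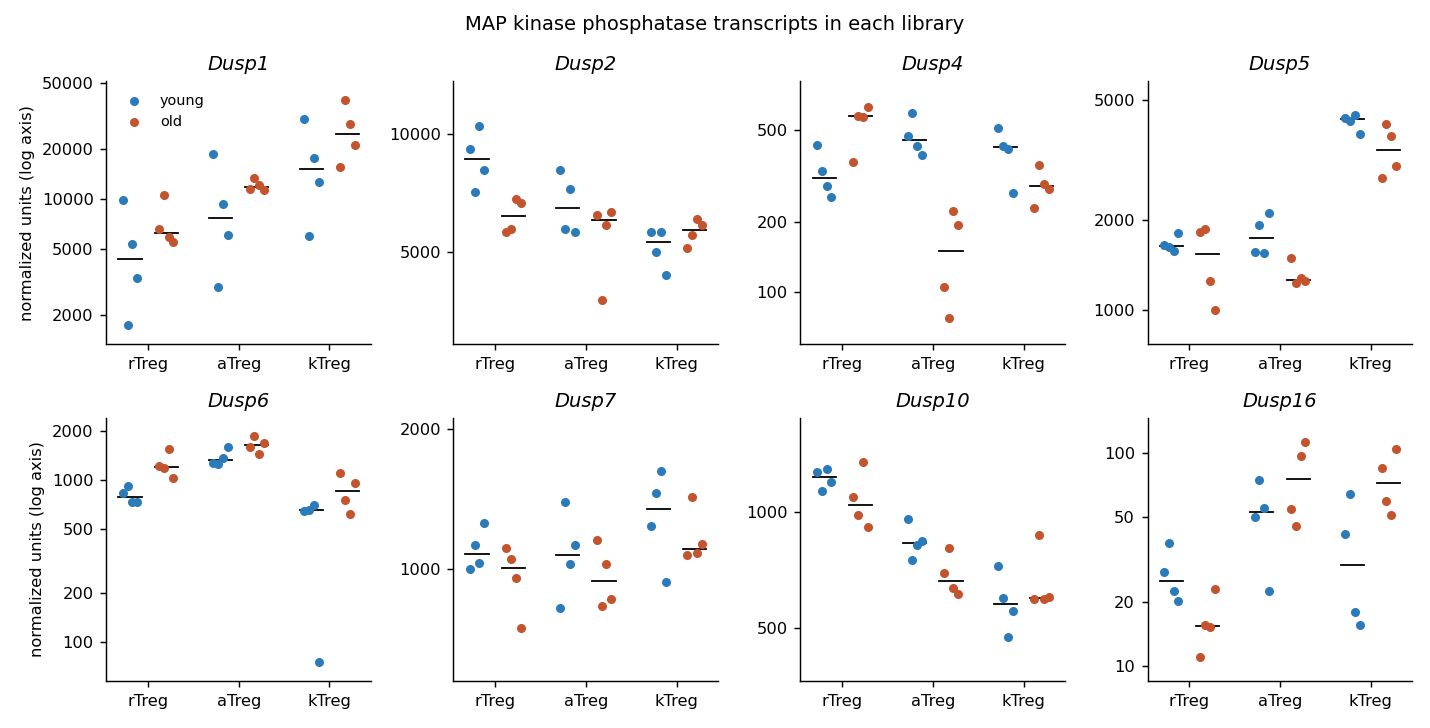
Level of each member in the 24 libraries, in normalized units on log axes that differ between panels. Blue points are young and orange points old mice, and black lines are group medians. *Dusp5* in kTreg libraries lies above all others, *Dusp4* drops in old aTreg libraries, and young kTreg replicate 4 is far below its group in *Dusp6*.

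*Dusp1* (ENSMUSG00000024190, chr17:26724564-26781102, minus strand, GRCm39), which encodes the inducible nuclear phosphatase MKP-1, rose from rTreg to kTreg cells. In young rTreg cells it measured 9821, 1721, 5335 and 3325 units in replicates 1 to 4, in young aTreg cells 18724, 2941, 9386 and 6054, and in young kTreg cells 30238, 5946, 17663 and 12655. In old rTreg cells the values were 6622, 10610, 5890 and 5487, in old aTreg cells 11438, 13390, 12168 and 11292, and in old kTreg cells 15633, 39704, 28192 and 21227. The young groups overlapped widely and the 3 old groups did not overlap, and in 8 of 8 mice rTreg was the lowest and kTreg the highest subset. In kTreg against rTreg cells the log2 fold change was 1.80 (SE 0.37, adjusted p = 0.00092, limma), and it was called in 45 of 45 alternatives. The log2 fold change was 1.77 in young mice and 1.84 in old mice (adjusted p = 0.020 and 0.026, limma), called in 36 and 35 of 43 alternatives.

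Much of the spread of *Dusp1* lay between mice. The highest of the young libraries exceeded the lowest 5.71-fold in rTreg, 6.37-fold in aTreg and 5.09-fold in kTreg cells, and young mouse 1 was highest and young mouse 2 lowest in each subset. Old mice differed 1.93-fold, 1.19-fold and 2.54-fold. Within a young mouse the steps were narrow in comparison, 1.62 to 1.93 on the log2 scale for kTreg against rTreg, 0.69 to 1.06 for kTreg against aTreg and 0.77 to 0.93 for aTreg against rTreg cells. Within an old mouse they ranged more widely, from 1.24 to 2.26, 0.45 to 1.57 and 0.34 to 1.05. Without the mouse in the model, the middle steps did not pass the test: kTreg against aTreg gave 0.98 (95% interval 0.22 to 1.74, adjusted p = 0.089, limma) and aTreg against rTreg 0.82 (0.06 to 1.59, adjusted p = 0.18, limma). With a term for each mouse as a replicate block, an analysis added after these values were seen, the standard error was 0.10 and both steps were called, kTreg against aTreg at an adjusted p of 2.2e-05 and aTreg against rTreg at 7.8e-05 (limma). The planned block, in which the mouse is a random effect with 1 correlation shared by all genes, left them uncalled (adjusted p = 0.058 and 0.13, limma).

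**Figure D3:**
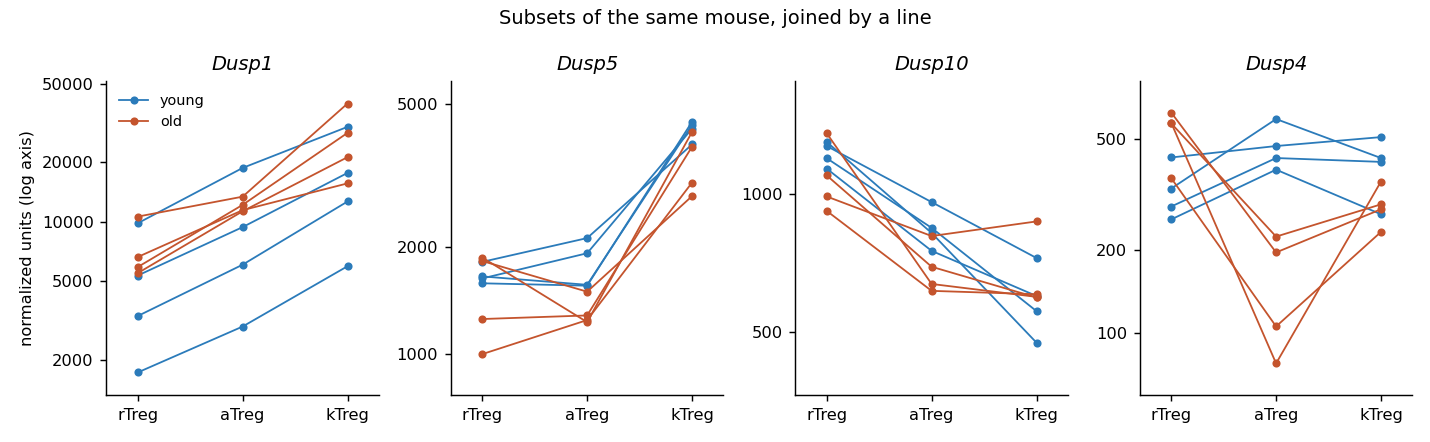
Levels of *Dusp1*, *Dusp5*, *Dusp10* and *Dusp4* in normalized units (log axes), with the 3 subsets of a mouse joined by a line. Blue lines are the 4 young and orange lines the 4 old mice. *Dusp1* climbs in all 8 mice along near-parallel lines in the young, and *Dusp4* dips in aTreg cells in the 4 old mice.

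The mouse-to-mouse spread of *Dusp1* ran alongside that of immediate early genes. After subtraction of each group's mean, the deviations of *Dusp1* over the 24 libraries correlated with those of *Junb* at r = 0.92 and of *Fos* at r = 0.90, which encode subunits of AP-1, and with *Jun* at 0.80. The 24 points come from 8 mice and share the libraries of a mouse, so these values are descriptions. *Fos* measured 5490, 441, 3784 and 2064 units in young rTreg cells, 3878, 279, 2753 and 1330 in young aTreg cells and 5085, 377, 4260 and 2031 in young kTreg cells. The young mice thus stood in the same order for *Fos* as for *Dusp1* in each subset, whereas the old mice did so in kTreg cells and not in rTreg or aTreg cells. Other genes of the same list did not follow, with deviations of *Nr4a1* at r = -0.01, *Egr1* at 0.10 and *Hspa8* at -0.06. Between subsets, *Fos* was not among the 2 of 19 immediate early and stress genes called in kTreg against aTreg cells (7.39% of all genes). The 2 were *Zfp36* (log2 fold change 1.02, adjusted p = 0.0043, limma) and *Nr4a1* (0.70, adjusted p = 0.011). Within old mice they were called, at 1.21 and 1.10. Within young mice they were not, at 0.82 (adjusted p = 0.12) and 0.30 (adjusted p = 0.49, limma). *Zfp36* encodes an mRNA decay factor and *Nr4a1* an orphan nuclear receptor induced by antigen receptor signals. In kTreg against rTreg cells 2 of 19 were called (15.5% of all genes), the heat shock genes *Hspa1a* (2.36, adjusted p = 0.0084) and *Hspa1b* (1.96, adjusted p = 0.017, limma). *Hspa1a* was also called within young mice, and neither within old mice. In aTreg against rTreg cells 1 of 19 was called (8.01% of all genes), *Nr4a1*, which was lower (-0.61, adjusted p = 0.026, limma). That difference was -1.29 within old mice, which was called, and 0.06 within young mice (adjusted p = 0.98, limma). The part of cell handling or stress in the level of *Dusp1* was not tested.

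**Figure D4:**
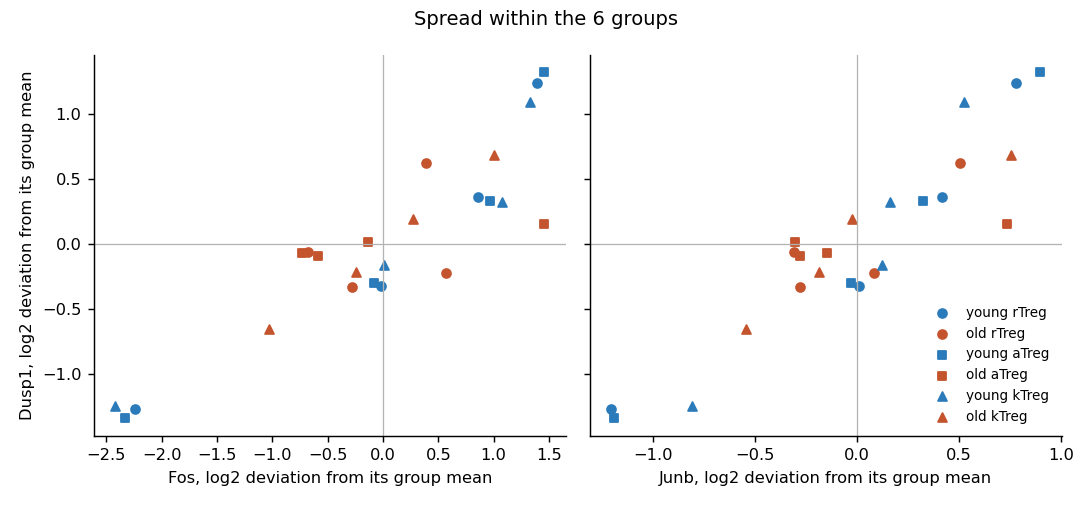
Deviation of *Dusp1* from its group mean (y axis, log2 scale) against that of *Fos* (left) and *Junb* (right) in 24 libraries. Circles are rTreg, squares aTreg and triangles kTreg libraries, blue from young and orange from old mice. The 3 libraries of young mouse 2 sit together at the lower left and those of young mouse 1 at the upper right.

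*Dusp5* (ENSMUSG00000034765, chr19:53517532-53530862, plus strand, GRCm39), which encodes a nuclear phosphatase specific for ERK, separated the kTreg cells from both other subsets. It measured 1651, 1630, 1579 and 1813 units in young rTreg, 1564, 1916, 1555 and 2112 in young aTreg, and 4373, 4271, 4462 and 3857 in young kTreg cells. In old mice it measured 1822, 1864, 1255 and 1001.5 in rTreg, 1496, 1230, 1284 and 1247 in aTreg, and 2766, 4180, 3800 and 3018 in kTreg cells. Every kTreg library lay above every rTreg and aTreg library. The log2 fold change was 1.31 against aTreg (SE 0.12, adjusted p = 2.7e-07, limma) and 1.29 against rTreg cells (SE 0.12, adjusted p = 5.3e-08, limma), higher in 8 of 8 mice in each case. aTreg and rTreg cells differed by -0.02 (95% interval -0.27 to 0.22). It was called in each age, with 1.26 in young and 1.37 in old mice against aTreg cells and 1.35 and 1.24 against rTreg cells. For the step from aTreg to kTreg cells the difference between the ages was 0.12 (95% interval -0.38 to 0.61, adjusted p = 0.88, limma). KLRG1 is a marker of the kTreg sort, and *Klrg1* was among the 3 genes whose levels over the 24 libraries were most like those of *Dusp5* (r = 0.89), with *Arl5a* and *Dgat2* at the same r. After subtraction of the group means r fell to 0.33 for *Klrg1*, 0.61 for *Arl5a* and 0.28 for *Dgat2*.

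*Dusp2* (ENSMUSG00000027368, chr2:127177957-127180296, plus strand, GRCm39), which encodes PAC-1, a nuclear phosphatase first described in activated T cells, was highest in young rTreg cells. Young rTreg cells measured 9152, 7106, 10511 and 8124 units, young aTreg cells 8089, 5746, 7231 and 5647, and young kTreg cells 5639, 5015, 5621 and 4384. Old rTreg cells measured 5627, 5732, 6848 and 6664, old aTreg cells 6242, 3791, 5861 and 6349, and old kTreg cells 5143, 5544, 6068 and 5873. Young rTreg and young kTreg libraries did not overlap, whereas the 3 old groups did. In young mice *Dusp2* fell by 0.75 on the log2 scale from rTreg to kTreg cells (adjusted p = 0.0015, limma), lower in 4 of 4 mice, and it was called in 43 of 43 alternatives. In old mice the difference was -0.13 (95% interval -0.46 to 0.19), and the difference between the ages was 0.61 (0.16 to 1.07, adjusted p = 0.14, limma), which did not pass the test. Averaged over the ages it was -0.44 (adjusted p = 0.0051, limma), under the fold threshold. *Dusp2* and *Dusp1*, the members with the highest levels per kilobase, thus moved in opposite directions between young rTreg and young kTreg cells.

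*Dusp4* (ENSMUSG00000031530, chr8:35274442-35287048, plus strand, GRCm39), which encodes the nuclear phosphatase MKP-2, was the member that differed most with age. Young aTreg cells measured 473, 593, 428 and 389 units and old aTreg cells 105, 77.5, 223 and 195, without overlap. Young rTreg cells measured 430, 332, 286 and 257, and old rTreg cells 362, 574, 572 and 626. kTreg cells measured 510, 428, 415 and 268 in young and 232, 352, 291 and 280 in old mice. In aTreg cells *Dusp4* fell by 1.75 on the log2 scale from young to old mice (SE 0.29, adjusted p = 0.0012, limma), which held in 43 of 43 alternatives and gave -1.48 without both old aTreg replicate 2 and young kTreg replicate 4. In rTreg cells the difference was 0.70 (95% interval 0.10 to 1.31, adjusted p = 0.15) and in kTreg cells -0.47 (-1.07 to 0.14, adjusted p = 0.43, limma). Consequently the call for aTreg against rTreg cells, -0.69 on the log2 scale (limma, adjusted p = 0.033) and made in 27 of 45 alternatives, described neither age. Young mice gave 0.54 (adjusted p = 0.46) and old mice -1.92 (limma, adjusted p = 0.00019). The ages differed by -2.46 in that step (SE 0.41, adjusted p = 0.0063, limma), where 1.56% of all genes were called, and the step was up in 4 of 4 young and down in 4 of 4 old mice.

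Other measures moved with *Dusp4*. *Nr4a1* was the gene whose levels were most like those of *Dusp4* over the 24 libraries (r = 0.84, and 0.67 after subtraction of the group means), and it also fell in aTreg cells from young to old mice (log2 fold change -1.21, adjusted p = 0.0068, limma). *Irag2* (r = 0.83) and *Ncr1* (r = 0.82) followed. *Foxp3* was lower in old aTreg libraries, with 5079 to 19813 units against 20351 to 25465 in young ones. The macrophage and monocyte markers summed to 124 to 239 units in old and 33 to 2699 in young aTreg libraries, the basophil and mast cell markers to 99 to 192 and 27 to 48, and the plasma cell markers, 3 of 3 listed, to 147 to 560 and 80 to 195. The 5 B cell markers summed to 490 to 808 units in old and 920 to 8260 in young aTreg libraries, and the 3 NK cell markers to 468 to 1342 and 632 to 700. Of the NK cell markers, *Ncr1* fell from young to old aTreg cells (log2 fold change -3.28, adjusted p = 0.025, limma). The heat shock genes *Hspa1a* (4.69, adjusted p = 0.0033) and *Hspa1b* (3.78, adjusted p = 0.011, limma) rose there. *Hspa1a* was also called higher in old than in young rTreg cells (3.60, adjusted p = 0.016, limma), where *Dusp4* did not fall. The part of these differences in the level of *Dusp4* was not tested.

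*Dusp6* (ENSMUSG00000019960, chr10:99086564-99103361, plus strand, GRCm39), which encodes the cytoplasmic phosphatase MKP-3 that acts on ERK and is itself an ERK target gene, was lowest in kTreg cells. Young rTreg cells measured 831, 909, 730 and 731 units, young aTreg cells 1273, 1245, 1370 and 1596, and young kTreg cells 642, 656, 704 and 75.1. Old rTreg cells measured 1215, 1178, 1546 and 1030, old aTreg cells 1589, 1854, 1434 and 1676, and old kTreg cells 1098, 753, 620 and 950. kTreg libraries lay below aTreg libraries without overlap, and the value of 75.1 came from young kTreg replicate 4, the library with the most genes at 0. In kTreg against aTreg cells the log2 fold change was -1.39 (SE 0.31, adjusted p = 0.0047, limma), lower in 8 of 8 mice and called in 44 of 44 alternatives. Without young kTreg replicate 4 it was -0.998 (SE 0.11, adjusted p = 4.2e-06, limma), with -1.03 in young and -0.96 in old mice. With all libraries *Dusp6* was called within young mice and not within old mice. Without young kTreg replicate 4 it was also called within old mice (adjusted p = 0.00094, limma). Within the ages it was called in 42 of 43 alternatives in young and in 5 of 43 in old mice.

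This library decided several other values of *Dusp6*. The groups share a common estimate of the spread, so the adjusted p also moved in comparisons that do not include this library. In aTreg against rTreg cells the log2 fold change was 0.59 with an adjusted p of 0.28 with it and 0.00062 without it (limma), higher in 7 of 8 mice. In kTreg against rTreg cells it was -0.80 (adjusted p = 0.070) with it and -0.41 (adjusted p = 0.010, under the fold threshold) without it. Old rTreg cells exceeded young ones by 0.62 (adjusted p = 0.44 with it, 0.011 without it, limma), and old kTreg cells exceeded young ones by 1.11 with it (adjusted p = 0.24) and by 0.32 without it (adjusted p = 0.47, limma). The old rTreg libraries are those with markers of other cells, and their part in this difference was not tested. *Mboat1* (r = 0.95), *Kcnk5* and *Gpm6b* (r = 0.94 each) were most like *Dusp6* over the 24 libraries. All of them were at 0 in at least 1 library, and without young kTreg replicate 4 their r was 0.80, 0.82 and 0.80.

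*Dusp7* (ENSMUSG00000053716, chr9:106245143-106252923, plus strand, GRCm39), the other cytoplasmic phosphatase directed at ERK, lay between 750 and 1625 units and was called in none of the 7 planned comparisons. The difference between kTreg and aTreg cells was 0.27 (95% interval 0.01 to 0.54, adjusted p = 0.18, limma), higher in 6 of 8 mice. Between old and young mice it was -0.20 in rTreg (-0.57 to 0.17), -0.16 in aTreg (-0.53 to 0.22) and -0.14 in kTreg cells (-0.51 to 0.24). *Rasgrp1*, which encodes an activator of Ras downstream of the antigen receptor, was the gene most like it (r = 0.82), followed by *Abcf1* and *Crebzf* (r = 0.75 each).

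*Dusp10* (ENSMUSG00000039384, chr1:183745499-183807842, plus strand, GRCm39), which encodes MKP-5, a phosphatase of JNK and p38, fell from rTreg to kTreg cells. Young rTreg cells measured 1271, 1134, 1297 and 1195 units, young aTreg cells 959, 751, 821 and 843, and young kTreg cells 724, 599, 474 and 555. Old rTreg cells measured 1096, 987, 1355 and 918, old aTreg cells 693, 809, 636 and 614, and old kTreg cells 594, 870, 596 and 604. In each age the rTreg libraries lay above all kTreg and aTreg libraries. The log2 fold change was -0.89 in kTreg (SE 0.11, adjusted p = 3.7e-06) and -0.60 in aTreg cells (SE 0.11, adjusted p = 0.00097, limma) against rTreg cells, lower in 8 of 8 mice in each case. In kTreg cells it was -1.07 in young and -0.71 in old mice, each called, and in aTreg cells -0.54 in young (adjusted p = 0.058) and -0.65 in old mice (adjusted p = 0.010, limma). The averaged value for aTreg cells sits close to the fold threshold and was called in 36 of 45 alternatives, and that for kTreg cells in 45 of 45. Between kTreg and aTreg cells the difference was -0.30 (95% interval -0.53 to -0.06, adjusted p = 0.092, limma), with the order kTreg, aTreg, rTreg from low to high in 4 of 4 young and 3 of 4 old mice. Within a mouse this difference lay between -0.79 and -0.33 in the young and between -0.22 and 0.11 in the old. Whether reads were counted by strand is not given in the sources used here, and *Dusp10* shares 808 exon bases with the antisense gene *1700056E22Rik*, which lay between 2.29 and 131 units. The limit is not particular to *Dusp10*. *Dusp5* shares 555 exon bases with the antisense gene *Gm50394* (17.7 to 167 units) and *Dusp1* 38 with *Ergic1* (1523 to 4679 units). *Dusp6* shares 685 with *Gm56965* and *Dusp2* 615 with *Gm74572*, antisense genes that were not among those listed. *Abhd11* (r = 0.86) was most like it over the 24 libraries.

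*Dusp16* (ENSMUSG00000030203, chr6:134692431-134784241, minus strand, GRCm39), which encodes MKP-7, a phosphatase directed at JNK, was the lowest member and the only 1 called higher in aTreg than in rTreg cells. Young rTreg cells measured 27.7, 37.7, 22.4 and 20.1 units, young aTreg cells 50.1, 75.0, 55.5 and 22.5, and young kTreg cells 41.8, 64.1, 17.8 and 15.6. Old rTreg cells measured 11, 15.6, 15.3 and 22.9, old aTreg cells 54.5, 45.5, 96.8 and 113, and old kTreg cells 84.9, 59.5, 51.4 and 105. The old rTreg libraries were separate from the other old libraries, whereas the young groups overlapped. The log2 fold change was 1.47 in aTreg (SE 0.34, adjusted p = 0.0066) and 1.15 in kTreg cells (SE 0.34, adjusted p = 0.018, limma) against rTreg cells. In old mice both were called, at 2.13 and 2.14 (adjusted p = 0.0070 in each case), and in young mice they were 0.81 (95% interval -0.20 to 1.82) and 0.17 (-0.85 to 1.18). The difference between the ages was 1.33 (adjusted p = 0.36) and 1.97 (adjusted p = 0.13, limma) and did not pass the test. Leaving out young mouse 1 or old mouse 1 ended the call for kTreg cells. *Reep1*, *Gstm5* and *Fam20c* (r = 0.83 each) were most like it, and all of them were at 0 in at least 1 library.

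Old and young mice were compared within each subset. Of the 8 members, 0 were called in rTreg (5.83% of all genes), 1 in aTreg, *Dusp4* (2.71%), and 0 in kTreg cells (1.26%). By unadjusted p with the same fold threshold, limma called 1, 1 and 2 members. By edgeR and DESeq2 on the recovered reads the counts were 0, 1 and 0 in each case. For the change of kTreg against aTreg cells with age, 0 members were called (0.156% of all genes), 1 by unadjusted p and 0 by edgeR and DESeq2. *Dusp1* was higher in old mice by 0.73 in rTreg (95% interval -0.35 to 1.81), 0.69 in aTreg (-0.39 to 1.77) and 0.80 in kTreg cells (-0.28 to 1.88), intervals that the spread of the young mice kept wide. *Dusp5* differed by -0.21 (-0.56 to 0.14), -0.43 (-0.78 to -0.09) and -0.32 (-0.67 to 0.03), with adjusted p from 0.22 to 0.50 (limma).

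**Figure D5:**
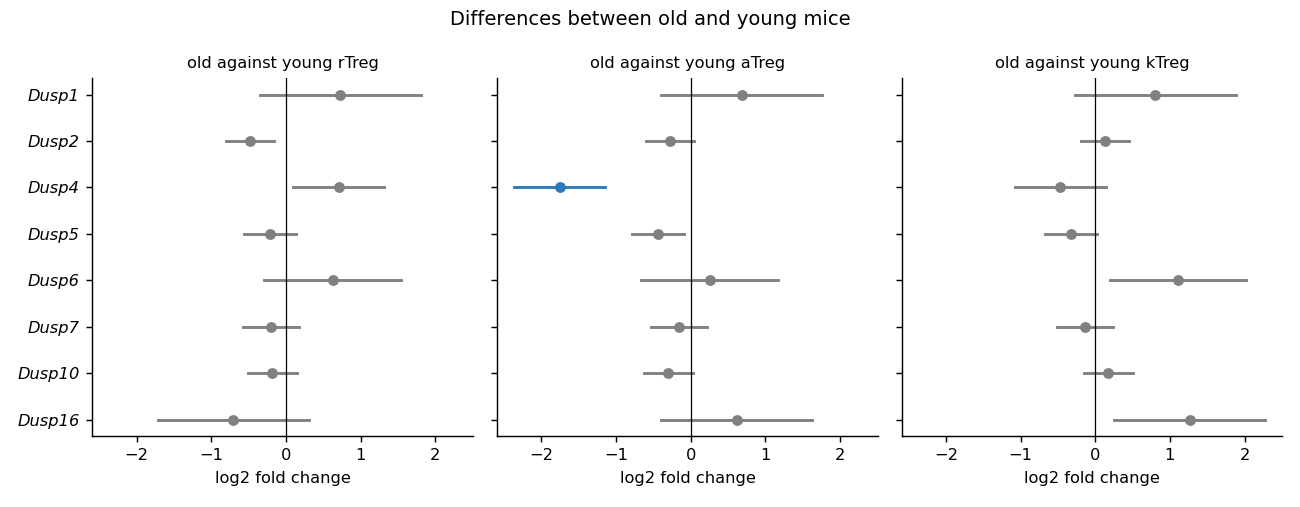
Log2 fold change (x axis) of each member between old and young mice in rTreg, aTreg and kTreg cells. Points are limma estimates and bars 95% confidence intervals, and colours are orange for called higher, blue for called lower and grey for not called. *Dusp4* in aTreg cells is the only member called.

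Kinases on which these phosphatases act were compared between the subsets. *Mapk3*, which encodes ERK1, had group means of 516 to 733 units, *Mapk8* (JNK1) of 132 to 226, *Mapk9* (JNK2) of 1891 to 2152 and *Mapk14* (p38 alpha) of 2866 to 4170, and none of them was called in the 7 planned comparisons. The 11 genes of the ERK cascade had a median log2 fold change of 0.02 in kTreg against aTreg cells, where that of all genes was -0.08.

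Of 13 genes of the JNK and p38 cascade, 12 were tested. In kTreg against aTreg cells 1 of the 12 was called (7.39% of all genes). In kTreg against rTreg cells 2 were called (15.5%), and in aTreg against rTreg cells 1 (8.01%). *Map2k3*, which encodes a kinase that activates p38, was called higher in kTreg cells against aTreg (log2 fold change 0.63, adjusted p = 3.2e-07) and against rTreg cells (0.81, adjusted p = 2.1e-09, limma). *Map2k6*, which encodes another p38 kinase, was called higher in kTreg than in rTreg cells (0.81, adjusted p = 0.0099), and *Mapk11* (p38 beta) lower in aTreg than in rTreg cells (-0.94, adjusted p = 5.0e-06, limma). No other gene of the list was called in a comparison of subsets. With age, *Map2k3* (0.77) and *Map3k5* (0.87) were called higher and *Map2k6* (-1.16) lower in rTreg, *Mapk11* lower in aTreg (-0.65) and *Mapk12* higher in kTreg cells (1.42, adjusted p = 0.040, limma). The old rTreg values come from the libraries with markers of other cells. Within the ages, *Map2k3* differed between kTreg and aTreg cells by 0.82 in young (called) and 0.44 in old mice (under the fold threshold). Between kTreg and rTreg cells *Map2k3* differed by 1.29 in young (called) and 0.32 in old mice, and *Map2k6* by 0.52 and 1.10 (called in old mice). *Mapk11* differed between aTreg and rTreg cells by -0.57 in young and -1.32 in old mice (called in old mice).

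Among 18 further feedback inhibitors and ERK output genes, 14 were tested. In kTreg against aTreg cells 1 of the 14 was called (7.39% of all genes). In kTreg against rTreg cells 2 were called (15.5%), and in aTreg against rTreg cells 1 (8.01%). *Phlda1* was called higher in kTreg cells against aTreg (0.78, adjusted p = 0.029) and rTreg cells (0.98, adjusted p = 0.0034, limma). Against aTreg cells it was called within neither age, and against rTreg cells only within young mice (0.99, adjusted p = 0.038, limma). *Etv4* was called lower in kTreg than in rTreg cells (-2.44, adjusted p = 0.011, limma). *Rasa3*, which encodes a Ras GTPase-activating protein, was called lower in aTreg than in rTreg cells (-1.05, adjusted p = 3.1e-05, limma). *Etv4* had group means of 25.3 units in old rTreg and 0.26 in old kTreg cells, and of 3.34 and 1.67 in the young groups, with log2 fold changes of -3.51 in old mice, which was called, and -1.38 in young mice (adjusted p = 0.34, limma). *Ier3* was called higher in old than in young rTreg cells (4.52, adjusted p = 0.0055, limma). The old rTreg values of *Etv4* and *Ier3* come from the libraries with markers of other cells, whose part in these differences was not tested. The list held *Fos* and *Egr1*, which also stand among the immediate early genes. Of 11 atypical dual-specificity phosphatases, which lack the MAP kinase docking domain, 10 were tested. In kTreg against aTreg cells 0 of these 10 were called (7.39% of all genes). In kTreg against rTreg cells 2 of 10 were called (15.5% of all genes). They were *Dusp18* (2.54, adjusted p = 0.021) and *Dusp3* (2.26, adjusted p = 0.041, limma), both higher, at no more than 68.2 units in any library. Within old mice *Dusp18* was called (3.46, adjusted p = 0.048), against the rTreg libraries with markers of other cells. It was not called within young mice (1.61, adjusted p = 0.33, limma), and *Dusp3* was called within neither age. *Dusp9*, another phosphatase of the MAP kinase type, was tested and not called between subsets, with 41.9 units at most.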

How the data were processed

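RNA of FACS-sorted splenic Treg subsets was amplified with SMART-Seq v4 and sequenced as paired 150-base reads. Per the submitters' processing notes, reads were processed with HISAT2 2.2.1, SAMtools 1.13, HTSeq 1.99.2 and DESeq2 1.44.0 on GRCm39. The annotation release and the strand setting are not given in the sources used here. The deposited table holds a signal per gene and library, read counts that the authors divided by the library's DESeq2 size factor, and 1 read was worth 0.694 to 1.32 units. In 100% of values whole reads were recovered within 0.001 reads, and every listed gene had at least 100 reads in all. Symbols came from GENCODE for 17353 of 17464 genes.

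Genes with at least 10 units in at least 4 libraries (16630) were tested with limma 3.58.1 in R 4.3.3 (trend over mean level) on log2(value + 1) with 6 group means, so fold changes of low genes are understated. Comparisons of subsets gave both ages equal weight. The members and gene lists were chosen with earlier results of these data known, and all 8 members are named, with the 3 genes most alike in level over the 24 libraries by Pearson's r. Genes of a list were named where they were called, except for a few results that are not reported here. Values per kilobase used the summed exon length. Alternatives were 10 settings with all libraries, among them edgeR 4.0.16 and DESeq2 1.42.0 on recovered reads, 24 left-out libraries, 8 left-out mice and 3 settings chosen after seeing the data.

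Per the series design, the 3 subsets came from the same 8 mice, 4 of each age, and the labels number the samples 1 to 4 in each subset. The number was taken to mark the mouse and to pair the samples, which the labels do not say outright. The median correlation of deviations from the group means was 0.153 between rTreg and aTreg, 0.0911 between rTreg and kTreg and 0.115 between aTreg and kTreg libraries of the same mouse, against -0.033, -0.034 and -0.051 for different mice. Figures were drawn with matplotlib 3.10.9.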

Additional observations from a re-analysis of the deposited data

Results flagged for a closer look

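In each group of 4 libraries the gap between the most extreme library and its neighbour was set against the range of the group, which chance alone exceeds in about 1 in 20 groups. Of 48 groups of the members, 3 held a library that stood apart. *Dusp6* measured 75.1 units in young kTreg replicate 4 against 642 to 704 in the other 3 libraries. *Dusp7* measured 1430 units in old kTreg replicate 2 against 1072 to 1132, and *Dusp10* measured 870 units in the same library against 594 to 604. *Dusp4* changed between aTreg and rTreg cells differently in old and young mice, by -2.46 on the log2 scale (adjusted p = 0.0063, limma). It was the only member for which a difference between the ages in a step between subsets passed the test.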

How the results depend on the processing

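Over 45 alternative settings and 7 comparisons, the number of members called kept within 1.5 times its value in 298 combinations of setting and comparison and moved in 9. In aTreg against rTreg cells it was 1 with libraries rescaled to equal sums and 0 in young mice only (chosen after seeing the data). By unadjusted p it was 1 in old against young rTreg, 2 in old against young kTreg cells and 1 for the change of kTreg against aTreg cells with age. Without both libraries that stand apart, a setting chosen after seeing the data, it was 2 in old against young rTreg cells, *Dusp4* and *Dusp6*. Leaving out a library or a mouse gave 2 to 3 members in kTreg against aTreg, 3 to 5 in kTreg against rTreg and 1 to 4 in aTreg against rTreg cells, the value of 1 without old rTreg replicate 3 or young mouse 3. With age it gave 0 to 1 in rTreg, the value of 1 (*Dusp6*) without young kTreg replicate 4, 1 in aTreg and 0 in kTreg cells, and 0 for the change of kTreg against aTreg cells. With the mouse as a random replicate block the counts were 2, 4 and 3 between subsets and 0, 1 and 0 with age, as without the block. As a fixed replicate block they were 3, 4 and 4 between subsets, *Dusp1* being the addition in the first, and 0 for the change with age. Of the fold changes of single members, 2403 kept their direction and side of the threshold, 22 passed it, 30 lost it and 1 reversed, *Dusp4* in aTreg against rTreg cells with 0.54 in young mice only. The cause was not tested. Depth limits *Dusp16*, which had 11 reads in its lowest library.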
